A study of Mus musculus with 6 samples.

Results

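The genes described here encode 9 surface antigens by which stem and progenitor cells of blood are sorted or followed. They are Cd34, Procr, Esam, Cd9, Cd93, Cd27, Cd44, Thy1 and Ptprc. They were taken by symbol from the 55401 gene IDs of the deposited table through the GENCODE M21 annotation, and each of the 9 was found and had enough counts to be tested. They were measured in 6 mouse bulk RNA libraries, 3 per group, each from 2000 cells sorted out of bone marrow. LSK cells (Lin-Sca-1+c-Kit+), a fraction that holds stem and multipotent progenitor cells, were wild type and untreated and came from C57BL/6 mice aged 6 to 8 weeks. ESC-derived cells (Lin-Sca-1+c-Kit-), labelled wild type and treated by differentiation of embryonic stem cells (ESCs), came from the marrow of primary recipients transplanted with CD144+ cells. The groups thus differed at once in ESC origin, in the c-Kit gate and in transplantation, which cannot be told apart here. Rises and falls below are levels in ESC-derived libraries set against those in LSK libraries. The sources used here do not give the strain or age of those recipients, any sort for donor origin, the antibodies of the Lin gate or whether replicates were separate mice, so p-values measure the spread between these libraries, which may be technical.

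These antigens do different jobs on the cell. CD34 is a sialomucin of progenitors and endothelium, EPCR (the product of Procr) is the receptor of activated protein C and marks quiescent stem cells, and ESAM and CD93 are shared by stem cells and endothelium. CD9 is a tetraspanin, CD27 is a receptor of the TNF receptor family found on multipotent progenitors and on T cells, and CD44 binds hyaluronan. Thy-1 is a GPI-anchored protein that is abundant on mouse T cells, and CD45 (the product of Ptprc) is the membrane tyrosine phosphatase of nearly all nucleated blood cells. A sort gate reads protein on the surface, whereas the values here are transcripts.

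Total estimated counts per library ran from 41580006 to 49269286. LSK replicate 2 lay between LSK replicates 1 and 3 for 62.5% of the tested genes with counts in all 3 libraries, against 18.4 to 37.6% for the other 5 libraries, so results are also given without it. Levels are given as CPM, counts per 1000000 counts of a TMM-scaled library. The LSK mean of Kit, the gene behind the c-Kit gate, was 48.7 ± 6.38 CPM (SD, n = 3 libraries), and the 3 ESC-derived libraries together held 12 Kit counts, a ratio of 533 (95% counting interval 182 to 2586). The summed level of 10 T cell markers was 66.8 to 91.9 CPM in the LSK libraries and 10558 to 11621 CPM in the ESC-derived libraries, and all 10 rose. The summed level of 8 stem and progenitor transcription factors was 430 to 439 CPM in LSK and 0.285 to 6.71 CPM in ESC-derived libraries, where Hoxa9 and Hoxa10 had 0 counts and 7 of the 8 fell. The 8 endothelial markers summed to 220 to 265 CPM in LSK and 24.1 to 68.5 CPM in ESC-derived libraries. Cdh5, the gene of CD144, had too few counts in either group to be tested, with 0 in ESC-derived libraries. The part of any of these cell types in the antigen levels was not tested, and in bulk RNA fewer cells of a type and less RNA per cell cannot be told apart.

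Of the 9 antigens, 5 fell in ESC-derived cells (Cd34, Procr, Esam, Cd93 and Cd9), 2 rose (Thy1 and Ptprc) and 2, Cd27 and Cd44, did not pass. The falls ranged from about 1130-fold for Cd34 to 2.16-fold for Cd9. Over all 16211 genes tested, 30.0% passed the edgeR test at a Benjamini-Hochberg adjusted p of 0.05, and 14.8% were higher and 15.2% lower in ESC-derived cells. In numbers, 2395 genes were higher and 2466 lower, and 1756 and 3057 with library totals as the only scaling. CPM values of the 2 groups did not overlap for the same 7 antigens, and did not overlap for 49.8% of all genes tested, 22.6% higher and 27.2% lower. The median log2 fold change was -1.11 over the antigens, which is the value of Cd9, and -0.07 over all genes tested. The antigens ran from -10.14 (Cd34) to 4.75 (Thy1), so that median describes no shared shift. Without LSK replicate 2, 4 antigens fell and 2 rose, beside 15.9% of 17030 genes tested, 8.61% higher and 7.34% lower.

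**Figure D1:**
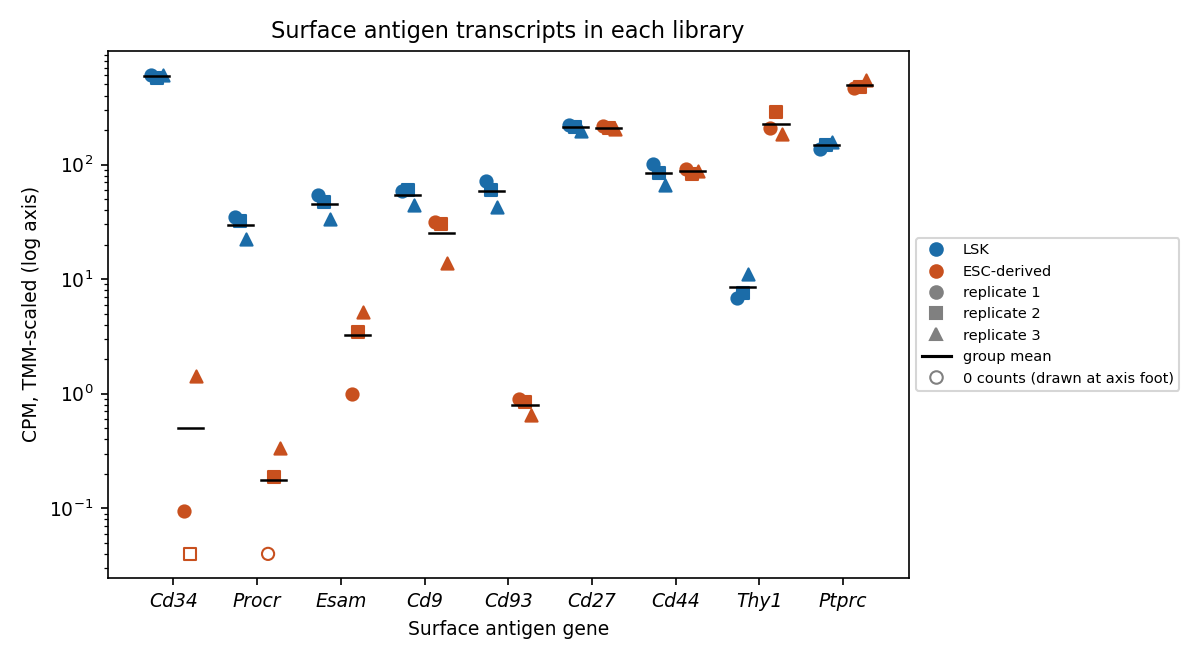
CPM (log axis) of the 9 antigens in each of the 3 LSK (blue) and 3 ESC-derived (orange) libraries, with bars at group means and open symbols for libraries with 0 counts. The groups are apart for Cd34, Procr, Esam, Cd9, Cd93, Thy1 and Ptprc and lie on each other for Cd27 and Cd44.

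The promoter windows of 4 antigens are shown because they span the pattern, with Cd34 and Procr falling, Ptprc rising and Cd27 level. Each window is from RefSeq on GRCm38.p6 and runs from 250 bases before to 50 bases after an annotated start, read 5′ to 3′ along the gene. Capitals mark matches on either strand to 4 short motifs, AGGAAG for ETS factors, TGTGGT for RUNX factors, AGATAA for GATA factors and CAGCTG for E-box factors. RefSeq windows were found for 6 of the 9 antigens, with 2 starts for Ptprc, of which the upstream one is shown. The windows are Cd34 at chr1:194938571-194938870 on the plus strand, Procr at chr2:155750967-155751266 on the plus strand, Ptprc at chr1:138175256-138175555 on the minus strand and Cd27 at chr6:125236978-125237277 on the minus strand.
Cd34: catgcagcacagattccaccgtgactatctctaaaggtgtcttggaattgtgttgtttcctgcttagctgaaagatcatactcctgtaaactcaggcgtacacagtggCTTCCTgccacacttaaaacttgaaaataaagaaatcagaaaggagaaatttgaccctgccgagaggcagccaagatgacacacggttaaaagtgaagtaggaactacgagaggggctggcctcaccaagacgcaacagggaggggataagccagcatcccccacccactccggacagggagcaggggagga
Procr: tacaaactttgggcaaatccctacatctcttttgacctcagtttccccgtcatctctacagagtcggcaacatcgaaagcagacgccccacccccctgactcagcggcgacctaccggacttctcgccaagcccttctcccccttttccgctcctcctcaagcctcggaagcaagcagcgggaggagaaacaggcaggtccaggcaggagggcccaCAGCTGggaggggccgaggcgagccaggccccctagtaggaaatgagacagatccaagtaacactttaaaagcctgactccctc
Ptprc: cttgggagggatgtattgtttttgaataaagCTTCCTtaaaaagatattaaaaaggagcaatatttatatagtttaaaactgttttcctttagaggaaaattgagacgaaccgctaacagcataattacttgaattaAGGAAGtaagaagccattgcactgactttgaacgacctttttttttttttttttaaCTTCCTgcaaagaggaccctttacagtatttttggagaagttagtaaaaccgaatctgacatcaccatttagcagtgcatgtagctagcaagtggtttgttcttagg
Cd27: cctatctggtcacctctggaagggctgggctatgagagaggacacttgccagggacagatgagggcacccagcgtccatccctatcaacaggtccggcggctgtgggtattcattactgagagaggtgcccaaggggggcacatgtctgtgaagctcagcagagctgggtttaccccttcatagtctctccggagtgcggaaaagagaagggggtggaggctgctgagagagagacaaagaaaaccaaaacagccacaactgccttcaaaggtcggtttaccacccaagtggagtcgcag
The Cd34 window held 1 ETS match, the Procr window 1 E-box match, the Ptprc window 3 ETS matches and the Cd27 window no match. No motif overlapped another in these windows. Of the windows not shown, that of Cd44, also level, held 3 ETS matches and 1 GATA match. The window of Cd9, which fell, held 1 ETS and 1 E-box match. The other Ptprc start had 1 ETS, 1 GATA and 1 E-box match. Among 32851 windows of the same length in the table, 35.4% held the ETS letters, 16.8% the RUNX letters, 11.2% the GATA letters and 16.3% the E-box letters. The share of G and C was 33.7% in the Ptprc window and 58.3% in the Procr window, against a median of 52.7% over all windows. A match is only a run of letters, and its absence from a window says nothing of the factor.

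Cd34 (ENSMUSG00000016494, mm10 chromosome 1, 194938819 to 194961279, plus strand) was the antigen with the highest CPM in LSK cells, at 600, 566 and 609 CPM in replicates 1 to 3. In ESC-derived replicates 1 to 3 it stood at 0.0951, 0 and 1.42 CPM, from 4, 0 and 67 counts. The LSK libraries were within 1.08-fold of each other, while ESC-derived replicate 3 held 93.7% of that group's summed CPM. The log2 fold change was -10.14 ± 1.17 (SE; 95% interval -12.93 to -7.35; edgeR adjusted p = 0.00123). Without ESC-derived replicate 3 the fitted value was -13.52, and without LSK replicate 2 it was -10.20. Flt3, a receptor of multipotent progenitors, had 83 counts in the ESC-derived group, all in replicate 3. The summed level of 8 stem and progenitor transcription factors was 0.285, 6.71 and 4.39 CPM in ESC-derived replicates 1 to 3. The part of progenitors in the level of Cd34 was not tested. An antisense gene, Gm16897, overlaps exons of Cd34 and had 115 to 326 counts per LSK library and 0 in ESC-derived libraries. The library kit does not mark strand, so reads of the overlap cannot be told apart.

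Procr (ENSMUSG00000027611, chromosome 2, 155751117 to 155755471, plus strand) was found at 34.9, 32.2 and 22.4 CPM in LSK replicates 1 to 3. The ESC-derived libraries held 0, 8 and 16 counts, or 0, 0.189 and 0.338 CPM, where 4 counts, about 1 sequenced fragment, were worth 0.0845 to 0.0951 CPM. Every ESC-derived library was thus within a few fragments of none. The log2 fold change was -7.36 ± 0.97 (95% interval -9.68 to -5.05; adjusted p = 0.00213, edgeR), with -7.33 without LSK replicate 2 and -8.26 without ESC-derived replicate 3.

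Cd93 (ENSMUSG00000027435, chromosome 2, 148436640 to 148443563, minus strand), known as the antigen AA4.1 of fetal stem cells and early B cell precursors, fell to about the same level in the 3 ESC-derived libraries, while its LSK values varied most among the falling antigens (coefficient of variation 25.3%). It stood at 72.0, 60.02 and 42.7 CPM in LSK replicates 1 to 3 and at 0.904, 0.850 and 0.655 CPM in ESC-derived replicates 1 to 3. Its ESC-derived counts, 38, 36 and 31, were spread evenly over the libraries, unlike those of Cd34. The log2 fold change was -6.18 ± 0.32 (95% interval -6.94 to -5.41; edgeR adjusted p = 4.41e-05), 72.4-fold lower, and -6.18 without LSK replicate 2. The summed level of 8 B cell markers was 571 to 592 CPM in LSK and 7.42 to 15.1 CPM in ESC-derived libraries. Of the 8, 5 passed as lower, and all 8 had lower CPM in each ESC-derived library than in any LSK library. Such separation downward was found for 27.2% of all genes tested. The summed level of 6 plasma cell markers was 4122 to 4825 CPM in LSK and 18.04 to 29.0 CPM in ESC-derived libraries. Of the 6, 5 passed as lower, and all 6 were separated in the same way. The part of these cells in the level of Cd93 was not tested.

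Esam (ENSMUSG00000001946, chromosome 9, 37528078 to 37538319, plus strand), an adhesion molecule of tight junctions, kept a measurable level in ESC-derived cells. LSK replicates 1 to 3 gave 54.2, 47.1 and 33.6 CPM. ESC-derived replicates 1 to 3 gave 0.999, 3.47 and 5.20 CPM, a 5.20-fold range within the group. The ESC-derived mean was 7.16% of the LSK mean, against 0.0851% for Cd34, 0.589% for Procr and 1.38% for Cd93. Its log2 fold change was -3.80 ± 0.61 (95% interval -5.24 to -2.36; edgeR adjusted p = 0.00457) and -3.78 without LSK replicate 2. The sum of 8 endothelial markers was 265, 239 and 220 CPM in LSK replicates 1 to 3. In ESC-derived replicates 1 to 3 it was 68.5, 45.2 and 24.1 CPM. With 3 libraries per group, orders within a group are too short to compare. The part of endothelial cells in the level of Esam was not tested.

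Cd9 (ENSMUSG00000030342, chromosome 6, 125460266 to 125494791, minus strand) fell least and its call was the least secure. LSK replicates 1 to 3 gave 58.3, 59.5 and 44.7 CPM. ESC-derived replicates 1 to 3 gave 31.4, 30.2 and 13.8 CPM, so the groups were apart but replicate 3 lay well below the others. Its fitted log2 fold change was -1.11 ± 0.34 (95% interval -1.91 to -0.31; edgeR adjusted p = 0.0464, range over 16 alternatives 0.00473 to 0.135). The call was lost without LSK replicate 1, 2 or 3 (adjusted p = 0.118, 0.135 and 0.0677) and without ESC-derived replicate 1 or 2 (adjusted p = 0.0576 and 0.0719), all from edgeR. Gm26728, antisense to an exon of Cd9, had 0 to 3 counts per library. Cd9 is also a protein of megakaryocytes and platelets, and of myeloid cells. The summed level of 6 megakaryocyte markers was 53.2, 45.1 and 31.8 CPM in LSK replicates 1 to 3. In ESC-derived replicates 1 to 3 it was 1.38, 4.72 and 1.03 CPM, with Ppbp and Gp9 at 0. The sum of 7 monocyte markers was 688, 607 and 366 CPM in ESC-derived replicates 1 to 3 and 789, 728 and 745 CPM in LSK replicates 1 to 3. The sum of 8 neutrophil markers was 4289, 3597 and 2179 CPM in ESC-derived replicates 1 to 3 and 1171, 1052 and 1147 CPM in LSK replicates 1 to 3. Of these 8 markers 6 rose, and 2 did not pass and were lower in each ESC-derived library than in any LSK library. The part of these cells in the level of Cd9 was not tested.

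Thy1 (ENSMUSG00000032011, chromosome 9, 44043384 to 44048579, plus strand) had the larger of the 2 rises. It stood at 6.89, 7.51 and 11.02 CPM in LSK replicates 1 to 3 and at 209.6, 289 and 184 CPM in ESC-derived replicates 1 to 3. Its log2 fold change was 4.75 ± 0.28 (95% interval 4.07 to 5.42; edgeR adjusted p = 7.74e-05), 26.9-fold higher, and 4.65 without LSK replicate 2. Among the antigens Thy1 was the lowest per length in LSK cells. The sum of T cell markers was 66.8, 85.6 and 91.9 CPM in LSK replicates 1 to 3 and 11621, 11224 and 10558 CPM in ESC-derived replicates 1 to 3. Thy1 was highest in LSK replicate 3 and in ESC-derived replicate 2, and 3 libraries per group are too few to compare orders. The summed level of 6 NK cell markers was 528 to 579 CPM in LSK and 9267 to 11357 CPM in ESC-derived libraries, and the 5 tested rose. Most of that sum was Nkg7, a granule gene also made by cytotoxic T cells, at 9972 CPM on average in ESC-derived libraries. Klra8 had too few counts in either group to be tested, with 0 in ESC-derived libraries. The part of either cell type in the levels of Thy1 and Ptprc was not tested.

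Ptprc (ENSMUSG00000026395, chromosome 1, 138062861 to 138175708, minus strand) was present in every library. It stood at 136, 148 and 158 CPM in LSK replicates 1 to 3 and at 465, 473 and 551 CPM in ESC-derived replicates 1 to 3. Its log2 fold change was 1.75 ± 0.12 (95% interval 1.47 to 2.03; edgeR adjusted p = 0.00012), 3.37-fold higher, and 1.73 without LSK replicate 2. A gene of uncertain status on the same strand, A130071D04Rik, lies within Ptprc without touching its annotated exons and had 256 to 517 counts in LSK and 1394 to 2134 counts in ESC-derived libraries. The table gives 1 value per gene, so the splice forms of CD45, which differ between naive and activated lymphocytes, cannot be read from it.

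Cd27 (ENSMUSG00000030336, chromosome 6, 125232622 to 125237010, minus strand) stood at 223, 212 and 198 CPM in LSK replicates 1 to 3 and at 219, 207 and 203 CPM in ESC-derived replicates 1 to 3. The groups overlapped, and the log2 fold change was -0.01 ± 0.10 (edgeR adjusted p = 0.957), with a 95% interval of the fold from 0.843 to 1.17. It is antisense to Vamp1, whose counts were 113 to 259 per LSK and 29 to 402 per ESC-derived library, small beside the 8759 to 10798 counts of Cd27. Cd44 (ENSMUSG00000005087, chromosome 2, 102811141 to 102901665, minus strand) stood at 101, 85.3 and 66.9 CPM in LSK and at 91.4, 83.6 and 87.1 CPM in ESC-derived replicates 1 to 3. All 3 ESC-derived values lay inside the LSK range, and the log2 fold change was 0.05 ± 0.17 (edgeR adjusted p = 0.856), with a 95% interval of the fold from 0.779 to 1.38. The intervals leave room for shifts of that size in either direction. With library totals alone as the scaling, which moved the median of all genes by -0.25, the values were -0.26 for Cd27 and -0.20 for Cd44 and did not pass.

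**Figure D2:**
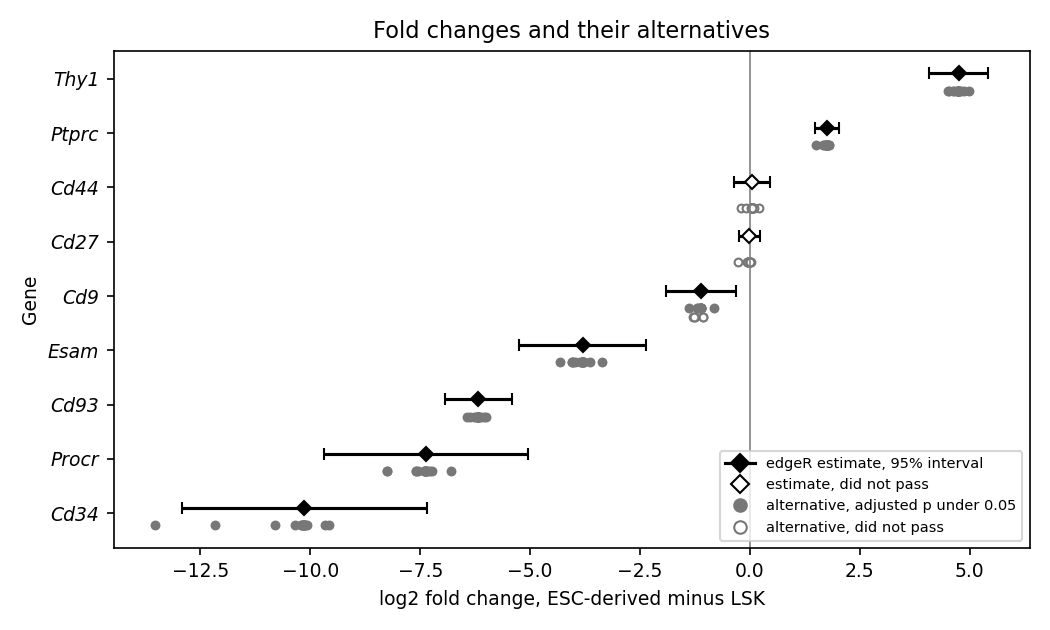
Log2 fold change (ESC-derived minus LSK) of each antigen with its 95% interval, filled where it passed an adjusted p of 0.05, and below it in grey the value under each of 16 alternatives, open where it did not pass. Cd9 has open points in the direction of its estimate, and Cd34 spreads most, from -13.52 to -9.58. The value of -13.52, without ESC-derived replicate 3, rests on ESC-derived counts of 4 and 0.

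Within the LSK group the antigens did not vary alike. Cd34, Cd27 and Ptprc were the steadiest, with coefficients of variation of 3.82, 5.92 and 7.52%, and the other 6 had 15.1 to 26.3%. LSK replicate 1 was highest for 5 of the 9 (Procr, Esam, Cd93, Cd27 and Cd44), and LSK replicate 3 was lowest for 6, those and Cd9. Thy1, Ptprc and Cd34 were highest in LSK replicate 3. In the ESC-derived group Cd27 and Cd44 were the steadiest, with 3.79 and 4.51%, and Esam, Procr and Cd34 varied most, with 65.5, 96.4 and 157%, at levels of 435 counts or fewer over the group.

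Levels were compared between genes as CPM per kilobase, with the merged annotated exons as the length. In LSK cells Cd27 (90.6) and Cd34 (81.1) led, followed by Cd9 (26.5), Esam (15.7), Procr (14.7), Cd44 (12.4), Cd93 (8.72), Ptprc (8.05) and Thy1 (2.83 CPM per kilobase). Neighbours from Esam to Ptprc in that order overlapped over the 3 libraries. In ESC-derived cells Cd27 (90.0) and Thy1 (76.0) overlapped at the top, Ptprc (27.1) came next, and Cd44 (12.9) overlapped with Cd9 (12.3). Esam (1.12) was above Cd93 (0.120), Procr (0.0865) and Cd34 (0.0691 CPM per kilobase), which overlapped. Thus Cd34 moved from second place to last and Thy1 from last to second by this measure, while Cd27 kept the first place. The order depends on the length: merged exons of Cd34 span 7290 bases against 2554 for its longest coding transcript, and those of Ptprc 18313 against 5074. With the latter lengths, chosen after seeing the data, Cd34 (232) stood above Cd27 (135) and Ptprc (29.0 CPM per kilobase) came after Cd9 (44.1) in LSK cells. In ESC-derived cells Cd27, Thy1 and Ptprc stayed the first 3, with 134, 131 and 97.8, and Cd34 (0.197) was among the last 3.

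**Figure D3:**
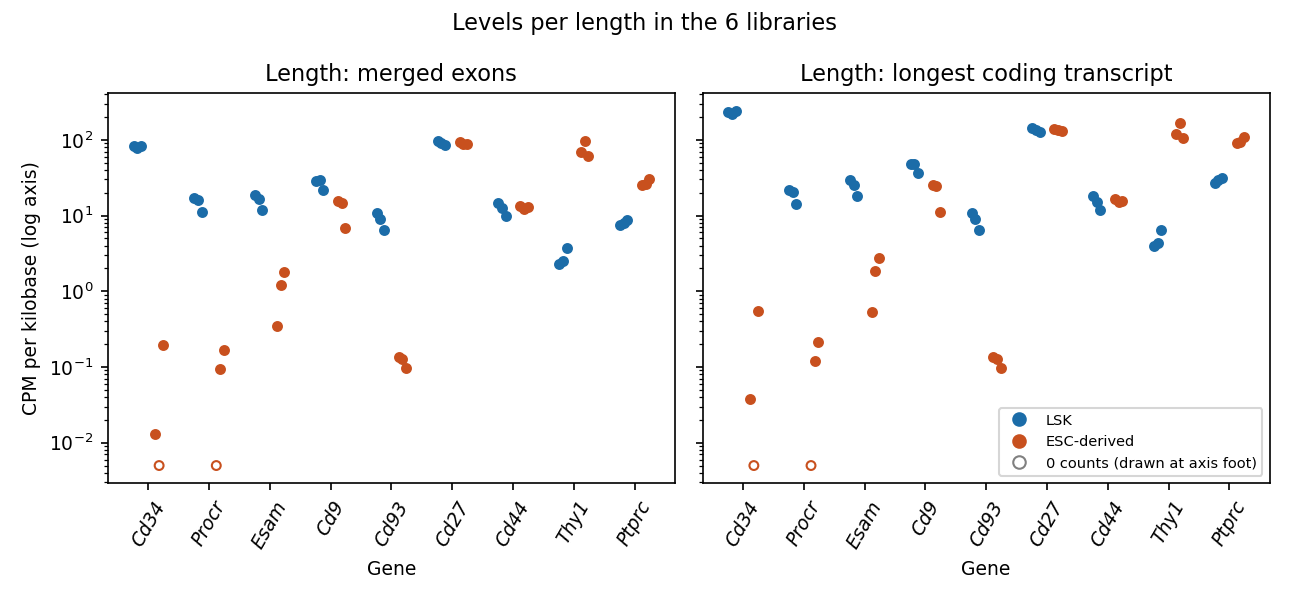
CPM per kilobase (log axis) of the antigens in each of the 6 libraries, with merged exons as the length on the left and the longest coding transcript on the right, LSK in blue and ESC-derived in orange. Cd27 is near the top in both groups, Cd34 is high in blue and low in orange, and Thy1 the reverse, on either length.

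Other antigens used to sort or follow stem and progenitor cells were split between the directions. Of 29 tested out of 30, 7 rose, 10 fell and 12 did not pass, with a median log2 fold change of -0.95. Cd48, a SLAM family antigen absent from long-term stem cells, rose by 2.71 ± 0.12, from 117 ± 10.3 to 770 ± 54.0 CPM (mean ± SD, n = 3 libraries). Slamf1, the CD150 of stem cells and of activated lymphocytes, rose by 4.28 ± 0.39, from 3.46 ± 1.02 to 67.3 ± 24.2 CPM. Eng, a co-receptor for TGF-beta ligands, fell by 4.94 on the log2 scale (SE 0.25), and Ly6a, the gene of Sca-1 and of the gate both groups share, rose by 1.30 ± 0.23. Cdh5 was not tested, with 8 counts in LSK and 0 in ESC-derived libraries.

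The relatives and partners of each antigen were taken as lists, and values below are log2 fold changes ± SE with CPM as mean ± SD (n = 3 libraries). Among genes of these lists named as risen or fallen, the edgeR adjusted p was at most 0.0266. Among tetraspanins, the family of CD9, 24 of 25 genes were tested, of which 3 rose and 7 fell (median -0.48). Cd81, a tetraspanin found on many cell types, fell from 316 ± 34.6 to 23.2 ± 4.08 CPM (-3.77 ± 0.18), and Tspan4 fell from 229.97 ± 10.99 to 18.5 ± 7.26 CPM (-3.63 ± 0.29). Cd82 rose by 2.73 ± 0.20 and Cd53, a tetraspanin of leukocytes, by 1.40 ± 0.10. Of 5 sialomucins tested out of 8, 2 rose and 1 fell (median 0.23). Selplg, the P-selectin ligand of leukocytes, rose from 215 ± 12.9 to 1221 ± 106 CPM (2.50 ± 0.11), Cd164 rose by 0.66 ± 0.15 and Emcn, an endothelial mucin also found on stem cells, fell (-2.49 ± 0.54). The Cd164 call was lost without LSK replicate 2 or ESC-derived replicate 1 and with library totals only, each leaving 1 rise, and the Emcn call without ESC-derived replicate 2, leaving 0 falls. Emcn stood at -3.22 without ESC-derived replicate 1. Podxl, a close relative of Cd34, had 8 counts in LSK and 4 in ESC-derived libraries, under the floor of 12 counts over a group, which stands for 3 fragments.

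In the protein C receptor and CD93 list, 11 of 13 genes were tested, of which 2 rose and 1 fell (median 0.45), a share near that of all genes. F2rl2, the thrombin receptor PAR3, rose from 2.73 ± 1.63 to 68.2 ± 14.1 CPM (4.64 ± 0.56). F2rl1, the gene of PAR2, rose by 4.29 ± 1.03, a call lost without any of LSK replicates 1, 2 or 3, or ESC-derived replicate 1, and with the replicate number as a block, with 4.89 without LSK replicate 2 and 3.20 without ESC-derived replicate 1. Mmrn1, a multimerin stored in platelets and endothelium, had a mean of 16.1 ± 5.75 CPM in the LSK group against 0 ESC-derived counts, at least 175-fold lower by that floor. Proc, the gene of protein C itself, had 0 counts in each library. Of 7 ESAM relatives and junction genes tested out of 11, 3 fell and 0 rose (median -1.60), with 0 higher also at an unadjusted p of 0.05 in edgeR and 0 by DESeq2 and limma-voom. Jam3, a junctional adhesion molecule of stem cells, was at least 27.0-fold lower, with 0 counts in ESC-derived cells, a call lost with the replicate block.

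Of 9 CD27 signalling genes tested out of 10, 4 rose and 1 fell (median 0.59). Traf2 rose by 1.08 ± 0.14 and Traf5 by 1.69 ± 0.30, both adaptors that bind the tail of CD27. Siva1, a CD27-binding protein linked to cell death, fell by 1.07 on the log2 scale (SE 0.27), a call lost without LSK replicate 2 or 3 and with the replicate block, each leaving 0 falls. Without LSK replicate 2, 2 genes of this list rose. Of 13 CD44 partners tested out of 19, 2 rose and 0 fell (median 0.27), with 0 lower also at an unadjusted p of 0.05 in edgeR and 0 by DESeq2 and limma-voom. Both rises were linkers of CD44 to actin, Msn, from 142 ± 5.69 to 320 ± 22.1 CPM (1.17 ± 0.10), and Ezr, by 1.30 ± 0.14. Without LSK replicate 1, 4 rose, and without LSK replicate 3, 1 fell.

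The CD45 list, of substrates, opposing kinases and partners of the phosphatase, had 10 rises and 1 fall among 18 genes (median 1.18). Zap70, a kinase of T cell receptor signalling, rose from 3.62 ± 0.497 to 495 ± 56.6 CPM (7.09 ± 0.18), and Lgals3, a galectin that binds CD45, from 34.6 ± 2.35 to 1120 ± 84.8 CPM (5.02 ± 0.12). Syk, the related kinase of B cells and myeloid cells, fell from 40.99 ± 1.58 to 2.77 ± 1.53 CPM (-3.89 ± 0.51). Without ESC-derived replicate 3, 2 genes of this list fell. Of 26 genes of GPI anchor synthesis, the pathway that tethers Thy-1, EPCR and Sca-1 to the membrane, 1 rose and 5 fell (median -0.09). Pigt, a subunit of the transamidase that attaches the anchor, fell from 159 ± 18.5 to 54.6 ± 13.9 CPM (-1.55 ± 0.21), and Pigh, of the first step of synthesis, by 1.39 on the log2 scale (SE 0.22). Pigs, another transamidase subunit, rose by 0.88 ± 0.23, a call lost when replicate 2 or 3 of either group was left out, with library totals only and with the replicate block, with 0 rises in each case. Without LSK replicate 2, 3 genes of this list fell. The share of tested genes called, beside 30.0% of all genes tested, was 61.1% for the CD45 list, 60% for sialomucins, 58.6% for the other sort antigens and 55.6% for CD27 signalling. It was 42.9% for ESAM relatives, 41.7% for tetraspanins, 27.3% for the protein C receptor and CD93 list, 23.1% for GPI anchor synthesis and 15.4% for CD44 partners. The counts for the protein C receptor, GPI anchor and CD44 lists were thus below the share over all genes.

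**Figure D4:**
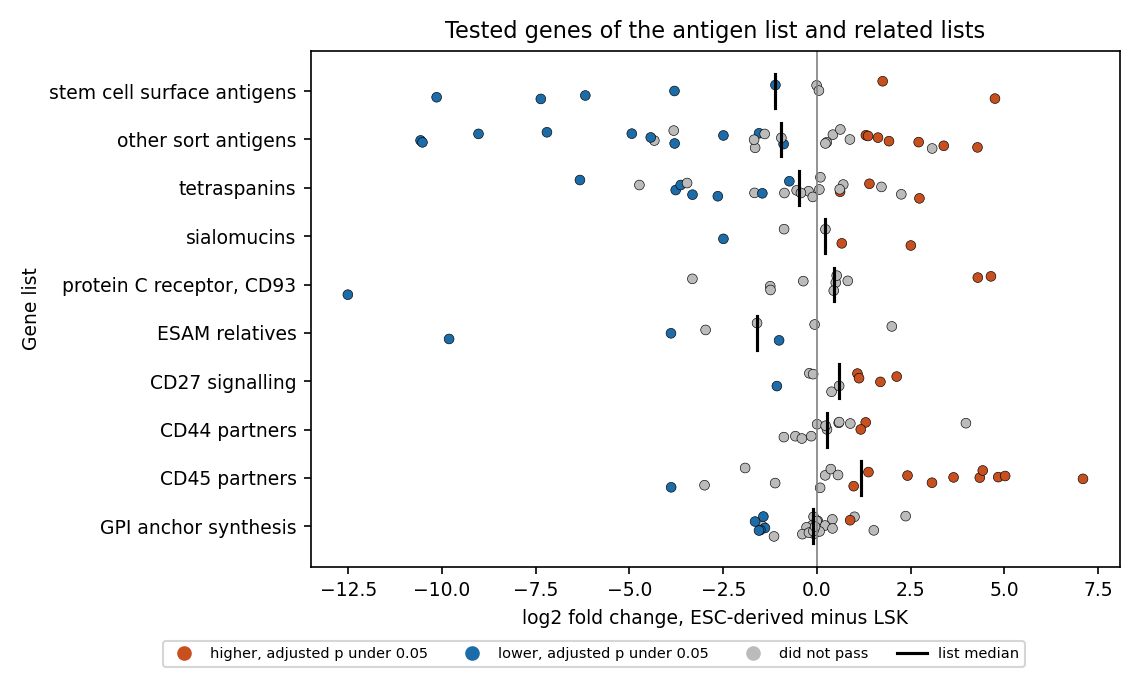
Log2 fold change (ESC-derived minus LSK) of each tested gene in the antigen list and 9 related lists, coloured by call, with a bar at the list median. Values of genes with 0 counts in a group, such as Mmrn1 and Jam3, depend on the fitted prior and are no bound. The antigen list runs from -10.14 (Cd34) to 4.75 (Thy1), and the CD45 list reaches 7.09 (Zap70).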

How the data were processed

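The deposited table holds estimated counts per Ensembl gene ID for 6 libraries, written by the authors as whole numbers and not normalized. Per the labels' protocols, RNA went through SMART-Seq v4 and Nextera XT kits. HISAT, StringTie and the build mm10 are named in the submitters' processing notes, while the sources used here give no settings or annotation. The 6 value columns were assigned from the names listed in the table's header. Of the values from 1 to 20, 40.1 to 47.2% were divisible by 4, so a fragment was often worth about 4 counts, and intervals and floors, set at 3 fragments or 12 counts over a group, cover counting error only. Of the IDs, 55141 matched GENCODE M21. Where IDs shared a symbol, the one with the highest total was kept.

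After filterByExpr 16211 genes remained, which were TMM-scaled and compared by edgeR's quasi-likelihood test (edgeR 4.0.16, R 4.3.3, robust, two-sided, threshold 0.05 after Benjamini-Hochberg adjustment), as ESC-derived minus LSK with no block. CPM come from the TMM-scaled libraries. SE and 95% intervals come from the F statistic and its degrees of freedom. On counts simulated for this comparison, 15141 genes were in the fit and 50 genes were changed per size. The fit called 2 at 2-fold, 16 at 4-fold, 27 at 8-fold and 33 at 16-fold, and 2 unchanged genes. A far smaller share of genes was changed there than was called in the data. The Benjamini-Hochberg cutoff depends on that share and was stricter there, so these numbers do not measure how many changes were found here.

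The antigens and lists were chosen with earlier results of these data known. All 9 antigens are named. From each related list up to 2 higher and 2 lower genes were named by adjusted p, and Kit and Ly6a as gate genes. A gene of the ESAM list that this rule took is not reported here. Of marker lists at most 2 genes are named. Flt3, Podxl, Proc, Cdh5 and the overlapping genes are named outside that rule, after their values were seen. Alternatives were DESeq2 1.42.0, limma-voom (limma 3.58.1), scaling by RLE, by upper quartile or by library totals alone, no filter, 50 counts in 3 libraries, values divided by 4, no immunoglobulin genes, a block for replicate number, and leaving out each of the 6 libraries.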

Additional observations from a re-analysis of the deposited data

How the results depend on the processing

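Of 144 fold changes of the 9 antigens over 16 alternatives, 134 kept their direction and their side of the threshold. Calls of Cd34, Procr, Esam, Cd93, Thy1 and Ptprc held under each alternative run. Cd9 did not pass in 5 of them, all left-out libraries. Cd27 and Cd44, near 0, changed sign in 5. Leaving out 1 library at a time gave -0.062 to 0.028 for Cd27 and -0.10 to 0.20 for Cd44, and library totals gave -0.20 for Cd44. Over the left-out libraries, 2 antigens rose each time and 4 to 5 fell, and 1466 to 2163 of all genes rose and 1250 to 2440 fell, against 2395 and 2466 with all 6 libraries. Both lowest counts were without LSK replicate 2.

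The replicate numbers are not shown to pair libraries: same-numbered libraries had correlations of 0.00, 0.05 and 0.01 between their deviations from group means, and not every library correlated best with its own number. With the replicate number as a block, 1732 genes rose and 1488 fell, the antigen calls stood, the protein C receptor list had 1 rise, the CD27 list 0 falls, and GPI anchor synthesis 0 rises and 3 falls. Of the named list genes, F2rl1, Jam3, Siva1 and Pigs did not pass with the block (adjusted p = 0.0857, 0.0662, 0.0714 and 0.0834, edgeR).

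With library totals only, 1 sialomucin gene rose, 1 CD44 partner and 2 CD45 partners fell, and 0 GPI anchor genes rose. DESeq2 gave 3 falls in the protein C receptor list, 2 in the CD45 list and 2 rises in GPI anchor synthesis, limma-voom gave 2, 3 and 2, and values divided by 4 gave 2 falls in each of the former lists. Over the left-out libraries the calls numbered 1 to 2 higher and 0 to 1 lower for sialomucins, 1 to 2 higher for the protein C receptor list, 2 to 4 higher and 0 to 1 lower for CD27 signalling, 2 to 4 higher and 0 to 1 lower for CD44 partners, 1 to 2 lower for CD45 partners, and 0 to 1 higher and 3 to 5 lower for GPI anchor synthesis. The cause of these changes was not tested. Of 448 fold changes of 28 named genes of these lists, 429 kept call and direction and 19 lost the call. Depth limits Cd34 and Procr in ESC-derived cells, whose levels rest on 71 and 24 counts.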
